A study of Rattus norvegicus with 88 samples.

Results

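miR-21 (rno-miR-21 on the array) was followed across the life span of the Fischer 344 rat, an inbred laboratory strain, in whole liver from females and males of 9 ages. It was found on the array by its name in the scanner files of 1 array design and joined to the remaining arrays by probe name. miR-21 was 1 of 677 rat miRNAs on the array, 1 of the 314 detected on at least 1 array, and 1 of the 103 detected on all 88 arrays. The rats received no treatment and were killed at 2 weeks of age, at 5, 6 or 8 weeks, at 15 or 21 weeks, or at 52, 78 or 104 weeks, with 1 array for each rat. Each of the 18 groups of sex and age had 5 arrays, except males of 5 and of 104 weeks, which had 4. The livers were not separated into cell types, so that a lower value for fewer cells of a type cannot be told apart from one for less RNA per cell.

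miR-21 is a short RNA cut from a hairpin precursor and loaded into the silencing complex, where its seed (bases 2 to 8) pairs with target mRNAs and lowers their translation or stability. Its known targets include Pdcd4, which restrains translation and growth. It is known to rise in regenerating liver, in liver tumours and in fibrosis, and it is made by hepatocytes as well as by leukocytes and activated stellate cells.

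The mature strand measured here and the other strand of the same hairpin, miR-21* (now miR-21-3p), are shown because all values below rest on the probes for them. The hairpin lies on chromosome 10 of GRCr8 (RefSeq), on the minus strand, at chr10:71902600-71902691, between the annotated genes Tubd1 and Vmp1. The mature strand lies at chr10:71902653-71902674 and miR-21* at chr10:71902615-71902636, and capitals mark the seed.
miR-21: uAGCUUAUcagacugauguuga
miR-21*: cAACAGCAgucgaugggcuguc
Of the 677 miRNAs on the array, 616 matched a RefSeq mature sequence, and only miR-21 itself carried the seed AGCUUAU.

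The values are normalized intensities. The total gene signal of miR-21, which the scanner software makes by adding the signals of its 2 probes and which has no unit, was divided by the array's 75th percentile over the 314 expressed miRNAs. This is the scaling of the study's methods, and it is called the study's scaling here. As a check, the percentile of the 103 miRNAs that all arrays detected was used in its place, which is called the common-set scaling. The total gene signal ranged from 1127 to 33846. The 2 probes for miR-21 had 10 spots each, all 10 well above background on every array, and the spots of 1 probe had a median coefficient of variation of 4.42%. On the log2 scale the 2 probes correlated at r = 0.94 across the 88 arrays, as a description, but the brighter was between 1.92-fold and 3.92-fold the dimmer. The other strand, miR-21*, was detected on 3 arrays, those of 104-week female 8, 104-week male 2 and 15-week male 2, so no comparison was made for it.

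In females miR-21 was lowest at 2 weeks, and under the study's scaling the later ages overlapped one another. The 5 arrays at 2 weeks had normalized intensities of 36.4, 37.9, 42.1, 48.8 and 51.7. At 5 weeks the intensities were 83.7, 95.0, 99.5, 104 and 109.5. At 6 weeks they were 83.4, 95.0, 114, 115 and 118. No 2-week female reached the lowest female of 5 or 6 weeks. The 8-week females had 84.6, 102, 110.5, 117 and 168. Those of 15 weeks had 72.6, 94.0, 104, 105 and 109. The 21-week females had 84.5, 109.6, 112, 115 and 119.8. These 3 ages overlapped one another and both of the ages before them. The females of 52 weeks had 87.9, 94.9, 106, 115 and 117, and those of 78 weeks 90.3, 93.0, 96.0, 102 and 120.0. At 104 weeks the intensities were 104, 111, 115, 119 and 320.0. The last of these, on the array of female 8, lay far above every other female array. The common-set scaling gave means from 5 to 78 weeks of 11.2, 10.4, 9.90, 8.45, 8.93, 8.17 and 7.72 in order of age, beside 6.32 at 2 weeks, and no pair of ages from 5 to 78 weeks passed the thresholds. The arrays of 5 and 78 weeks did not overlap on that scaling (log2 difference -0.53, adjusted p = 0.0804 from limma).

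In males, under the study's scaling, miR-21 was lower still at 2 weeks, was highest at 15 weeks and lay between 120.3 and 159 at the oldest ages. The 2-week males had normalized intensities of 21.1, 22.2, 22.5, 26.9 and 40.2, and the 4 males of 5 weeks had 93.4, 110.1, 119.5 and 138. At 6 weeks the intensities were 119, 127, 128, 136 and 153. All later males lay above the 2-week males. At 8 weeks they were 133, 136, 142, 157 and 186. The 15-week males had 146, 177, 189.7, 209 and 224. Each of the 5 lay above every 5-week male. The 21-week males had 139, 156, 159.7, 189 and 194, and the 52-week males 139.5, 147, 150.4, 168 and 199. At 78 weeks the intensities were 120.3, 124, 125, 139 and 159, and the 4 males of 104 weeks had 127, 133, 140.2 and 140.3. The 104-week males had the smallest SD of the 18 groups, with a mean of 135 ± 6.62 (SD, n = 4).

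**Figure D1:**
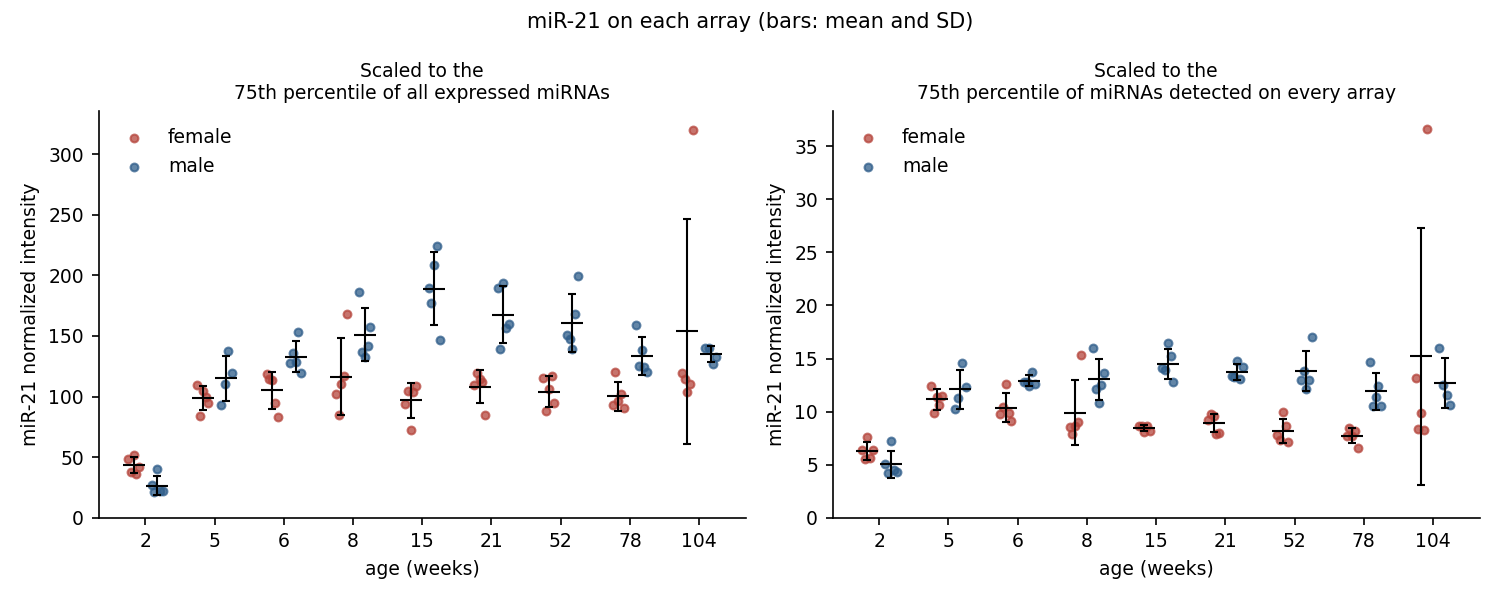
miR-21 normalized intensity (linear axis) on each of the 88 arrays by age in weeks, females in red and males in blue, with the group mean and SD in black. On the left the study's scaling is used, where the 10 arrays of 2 weeks lie at or below 51.7 and all 78 later arrays at or above 72.6; on the right the common-set scaling is used (75th percentile over 103 miRNAs), and the 2-week females (up to 7.66) overlap the older females (down to 6.60).

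miR-21 rose between 2 weeks and 5 weeks in both sexes and, among the later pairs of ages, passed the thresholds in 1, in males, under the study's scaling. It changed with age in females (F test, adjusted p = 2.64e-07 from limma, a test that called 61.8% of the 314 miRNAs) and in males (adjusted p = 7.57e-19 from limma, 56.1% called). Of the 36 pairs of ages, 8 passed the thresholds of an adjusted p of 0.05 and a 1.5-fold difference in females, each of them a later age against 2 weeks. In males 9 passed, which were the 8 against 2 weeks and that of 15 against 5 weeks (log2 difference 0.71, SE 0.15, adjusted p = 0.000368 from limma, 10.5% called). On the common-set scaling, the females of 5, 6, 8 and 104 weeks still passed against those of 2 weeks, while those of 15, 21, 52 and 78 weeks did not (log2 differences 0.29 to 0.50, adjusted p = 0.0663 to 0.297 from limma), and 104 weeks, with female 8 included, passed against 78 weeks. All 8 male pairs with 2 weeks passed on that scaling, but 15 against 5 weeks did not (log2 difference 0.27, adjusted p = 0.173 from limma). A further 5 male pairs of later ages had an adjusted p under 0.05 but less than a 1.5-fold difference under the study's scaling. The 15-week males lay above those of 6, 78 and 104 weeks (log2 differences, older minus younger, 0.50, -0.49 and -0.47), and the 5-week males below those of 21 and 52 weeks (0.54 and 0.48), and with the common-set scaling their adjusted p-values from limma were 0.223 to 0.516. In the female pairs with 2 weeks, 31.8%, 35.4%, 44.6%, 45.2%, 44.6%, 51.3%, 48.4% and 40.4% of miRNAs were called, from 5 to 104 weeks in order of age. In the male pairs the shares were 44.6%, 48.4%, 47.5%, 48.1%, 49.7%, 48.1%, 48.4% and 50%.

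Ordered by geometric mean, the female ages ran 2, 15, 5, 78, 52, 6, 21, 8 and 104 weeks, from 43.0 to 138. Only the first step, of 1.16 on the log2 scale from 2 to 15 weeks (SE 0.20, adjusted p = 3.25e-06 from limma), separated neighbours in this order, and the steps from 15 weeks up to 8 weeks were at most 0.08. The male ages ran 2, 5, 6, 78, 104, 8, 52, 21 and 15 weeks, from 25.8 to 187. Here too the first step, of 2.15 from 2 to 5 weeks (SE 0.15, adjusted p = 2.02e-15 from limma), separated neighbours, and no later step did.

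Against the adult rats of 5 to 21 weeks, the 2-week intensity of miR-21 was 2.41-fold lower in females and 5.79-fold lower in males. The log2 difference, 2 weeks minus adult, was -1.27 in females (SE 0.16, adjusted p = 2.19e-09 from limma), in a comparison that called 39.8% of miRNAs, 72 of them lower at 2 weeks. In males it was -2.53 (SE 0.14, adjusted p = 3.99e-20 from limma), with 49.7% of miRNAs called and 94 of them lower. The change was larger in males by 1.25 on the log2 scale (interaction -1.25, SE 0.19, adjusted p = 7.55e-08 from limma), and 29.9% of miRNAs had such an interaction. After quantile normalization, which sets every array to 1 distribution, the interaction was -0.16 (adjusted p = 0.343 from limma) and did not pass. That method gave every later male age the same log2 difference from 2 weeks, 0.70, so it cannot decide the size of the interaction.

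The size of the 2-week difference moved with the scaling. A mean of 217 miRNAs was detected on the 2-week female arrays and of 223 on the male ones, against 155 to 190 in the other groups, and the 75th percentile used as the divisor had means of 149 and 135 at 2 weeks, against 42.4 to 118. The 103 miRNAs detected on every array had a median log2 difference of -0.52 in females and -0.99 in males. Relative to this median, miR-21 was lower at 2 weeks by a log2 difference of -0.75 in females and -1.55 in males. With the common-set scaling, the differences of miR-21 were -0.62 in females (adjusted p = 0.00724 from limma) and -1.42 in males (adjusted p = 1.57e-16 from limma), and the interaction was -0.80 (adjusted p = 0.00104 from limma). The percentile over all array miRNAs gave larger differences, of -2.04 in females (adjusted p = 6.84e-06 from limma) and -3.73 in males (adjusted p = 1.3e-11 from limma), with an interaction of -1.66 (adjusted p = 0.00767 from limma). On arrays with few detected miRNAs that percentile falls on an undetected one, held at the raw minimum. This divisor therefore follows the number of detected miRNAs. On the common-set scaling 25 miRNAs were lower and 81 higher at 2 weeks in females, and 23 lower and 105 higher in males, so that miR-21 belonged to the smaller group.

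**Figure D2:**
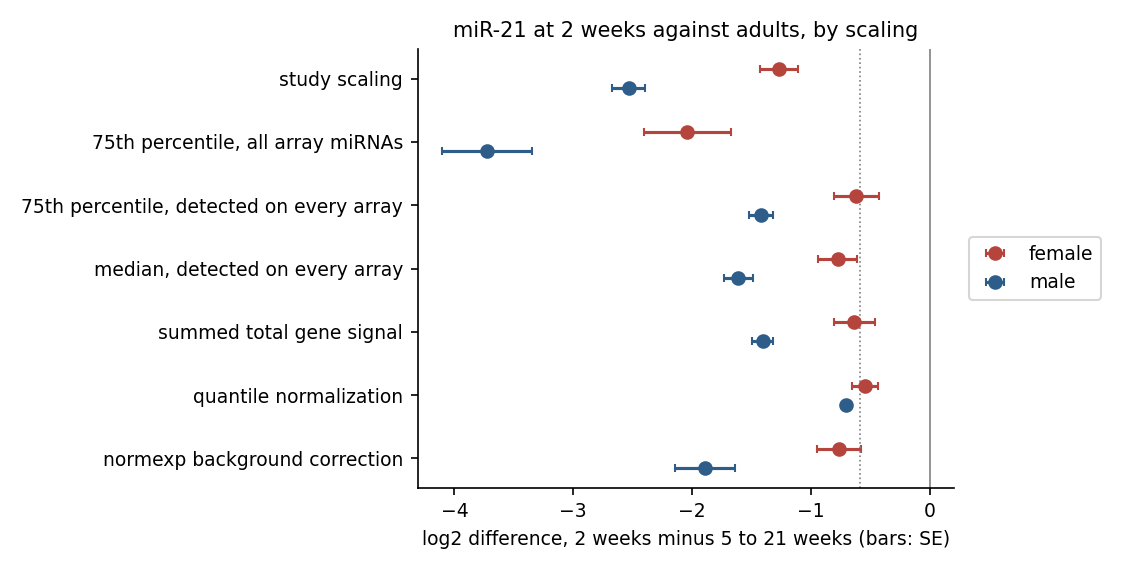
Log2 difference of miR-21 between 2 weeks and 5 to 21 weeks (points, with SE as bars) in females (red) and males (blue) under 7 ways of processing the arrays; the dotted line marks 1.5-fold. Males lie further below 0 than females in each of the 7, from -3.73 and -2.04 with the percentile over all array miRNAs to -0.70 and -0.54 with quantile normalization. The percentile over all array miRNAs is the raw minimum on arrays with few detected miRNAs.

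The 2-week difference was present within single scans, which are groups of arrays scanned with no gap of more than 8 hours. Within scan 3, 3 males of 2 weeks had a geometric mean of 28.9 and 7 adult males 159. Within scan 4, 2 females of 2 weeks had 44.3 and 9 adult females 103, and 1 male of 2 weeks had 22.5 against 140.4 in 8 adult males. Within scan 5, 2 females of 2 weeks had 42.1 against 96.0 in 2 adults, and 1 male had 21.1 against 147 in 4 adults. In scan 2 the single 2-week female had 42.1 and the 4 adult females 97.5. With the scan as a block, the log2 differences were -1.21 in females and -2.57 in males.

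The cell type markers moved in part with miR-21 at 2 weeks. All 6 hepatocyte markers, miR-122 and miR-192 among them, were detected on every array, as whole liver requires, and all 6 were lower at 2 weeks in both sexes. Their summed intensity was 575 to 689 in 2-week females and 677 to 1314 in adult females, and 407 to 440 against 656 to 1296 in males. Of the 6 leukocyte markers, miR-155 was not on the array, and 3 of 5 were lower at 2 weeks in females and 4 of 5 in males. The summed leukocyte markers were 4.15 to 5.54 at 2 weeks and 6.09 to 14.8 in adult females, and 3.21 to 5.95 against 7.23 to 13.7 in males. With the common-set scaling, no hepatocyte marker and 1 leukocyte marker (miR-142-5p, in females) was lower at 2 weeks. The 8 markers of stellate, smooth muscle and endothelial cells included 1 that was lower in 2-week females and 3 in males, and their sums overlapped in females (30.0 to 37.8 against 30.4 to 50.7) but not in males (26.6 to 30.3 against 30.8 to 46.0). Their direction turned with the common-set scaling, where none was lower and 4, miR-199a-3p, miR-199a-5p, miR-214 and miR-126, were higher at 2 weeks in each sex. Both erythroid markers on the array, miR-451 and miR-144, were lower at 2 weeks in each sex, and no longer called with the common-set scaling. Of the 5 biliary markers, miR-200a and miR-200b were higher in 2-week females, and with the common-set scaling these and miR-429 were higher in both sexes. Of the 5 skeletal muscle markers, miR-499 was lower in 2-week females (log2 difference -1.93), also with the common-set scaling, and their sums ranged from 0.0601 to 65.6 over the arrays. The part of these markers in the difference of miR-21 was not tested.

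miR-21 was higher in females at 2 weeks and higher in males at 15, 21 and 52 weeks. The 2-week females averaged 43.4 ± 6.71 (SD, n = 5), whereas the males averaged 26.6 ± 7.92 (SD, n = 5). The log2 difference, male minus female, was -0.74 (SE 0.17, adjusted p = 0.000331 from limma), 18.8% of miRNAs were called at this age, and 1 male lay within the female range. This call rested on the scaling. The difference was -0.34 (adjusted p = 0.222 from limma) with the common-set scaling and -0.25 (adjusted p = 0.371 from limma) with the summed total gene signal, and with the percentile over all array miRNAs it was -0.70 (adjusted p = 0.557 from limma). Markers from 3 of the lists were called lower in males at this age under the study's scaling, which were the hepatocyte marker miR-122 (log2 difference -0.63), leukocyte miR-150 (-0.95) and, among those of stellate, smooth muscle and endothelial cells, miR-10a-5p (-0.59). The summed hepatocyte markers, 575 to 689 in females and 407 to 440 in males, did not overlap, whereas the summed markers of leukocytes, stellate and related cells, erythroid cells, biliary cells and skeletal muscle did. No marker was called between the sexes at 2 weeks with the common-set scaling, and the part of the markers in the difference of miR-21 was not tested.

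Under the study's scaling, miR-21 had its largest difference between the sexes at 15 weeks, where males averaged 189 ± 29.8 (SD, n = 5). The females of this age averaged 96.8 ± 14.6 (SD, n = 5). The log2 difference was 0.97 (SE 0.17, adjusted p = 2.51e-05 from limma), or 1.95-fold, and 9.24% of miRNAs were called. The common-set scaling gave 0.78 (adjusted p = 0.0011 from limma). The number of detected miRNAs differed as well, with means of 155 in these males and 186 in these females.

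At 21 weeks males averaged 168 ± 23.3 (SD, n = 5), and females averaged 108 ± 13.7 (SD, n = 5; log2 difference 0.63, SE 0.17, adjusted p = 0.00899 from limma, 6.05% called). At 52 weeks males averaged 161 ± 23.8 (SD, n = 5), whereas females averaged 104 ± 12.6 (SD, n = 5), with a log2 difference of 0.62 (SE 0.17, adjusted p = 0.0101 from limma, 6.69% called). At 15, 21 and 52 weeks every male lay above every female. The values at 21 and 52 weeks were just above 1.5-fold and fell under it when 1 array was left out. At 21 weeks this held for female 6 (0.55) and male 4 (0.58), and at 52 weeks for female 5 (0.56) and male 10 (0.54), with adjusted p-values from limma between 0.0335 and 0.0449. At 15, 21 and 52 weeks the values were 0.088, 0.18 and 0.42 after quantile normalization and 0.46, 0.37 and 0.44 after normexp background correction, none past the thresholds. Quantile normalization gives a rank the same value on every array, and the males of 15, 21 and 52 weeks had equal means under it. It therefore cannot decide the size of the sex difference. Over all miRNAs, normexp called 0 higher and 4 lower in males at 15 weeks, against 10 and 19 under the study's scaling. At 21 weeks it called 0 and 2 against 8 and 11, and at 52 weeks 3 and 3 against 8 and 13. With the percentile over all array miRNAs the differences of miR-21 were larger, at 1.71, 0.97 and 1.55, of which those at 15 and 52 weeks passed. That divisor is the raw minimum on arrays with few detected miRNAs, such as those of the 15-week males (145 to 163 detected). These values therefore also carry the number of detected miRNAs.

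Some cell type markers were also higher in males at these ages. Erythroid miR-451 was higher at 15 and 21 weeks, by log2 differences of 0.96 and 0.83, biliary miR-200b at 15 weeks by 1.54, and leukocyte miR-223 at 52 weeks by 0.81, and all 4 differences were called with the common-set scaling as well. No other marker was called at the 3 ages under the study's scaling, and with the common-set scaling miR-142-5p and the hepatocyte marker miR-101a were lower in 15-week males. The summed erythroid markers at 15 weeks were 5.27 to 7.35 in females and 7.82 to 19.3 in males, without overlap. Summed biliary markers were 0.570 to 1.502 and 1.19 to 2.33, summed leukocyte markers 9.51 to 12.4 and 7.36 to 12.4, and summed hepatocyte markers 889 to 1171 and 996 to 1296, all overlapping. Likewise overlapping were the sums for stellate, smooth muscle and endothelial cells (30.4 to 42.8 and 36.9 to 43.7) and for skeletal muscle (0.160 to 12.2 and 0.0601 to 65.6). The part of these markers in the sex difference of miR-21 was not tested.

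The remaining ages did not pass the thresholds. The log2 differences, male minus female, were 0.22 at 5 weeks (95% confidence interval -0.14 to 0.58, 0% of miRNAs called), 0.34 at 6 weeks (0.00339 to 0.69, 0.637% called) and 0.40 at 8 weeks (0.06 to 0.74, 5.1% called). Over the alternatives the 8-week value ran from -0.27 with normexp to 1.79 with the percentile over all array miRNAs, and the latter was called. That percentile follows the number of detected miRNAs, as stated above. At 78 weeks the difference was 0.41 (0.07 to 0.75, adjusted p = 0.128 from limma, 3.82% called), although all males lay above all females, as they did at 6 weeks. The 78-week difference was 0.62 with the common-set scaling (adjusted p = 0.0282 from limma), past the thresholds. At 104 weeks the difference was -0.03 (-0.40 to 0.33, adjusted p = 1 from limma, 4.46% called), and without the array of female 8 it was 0.27 (adjusted p = 0.598 from limma).

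**Figure D3:**
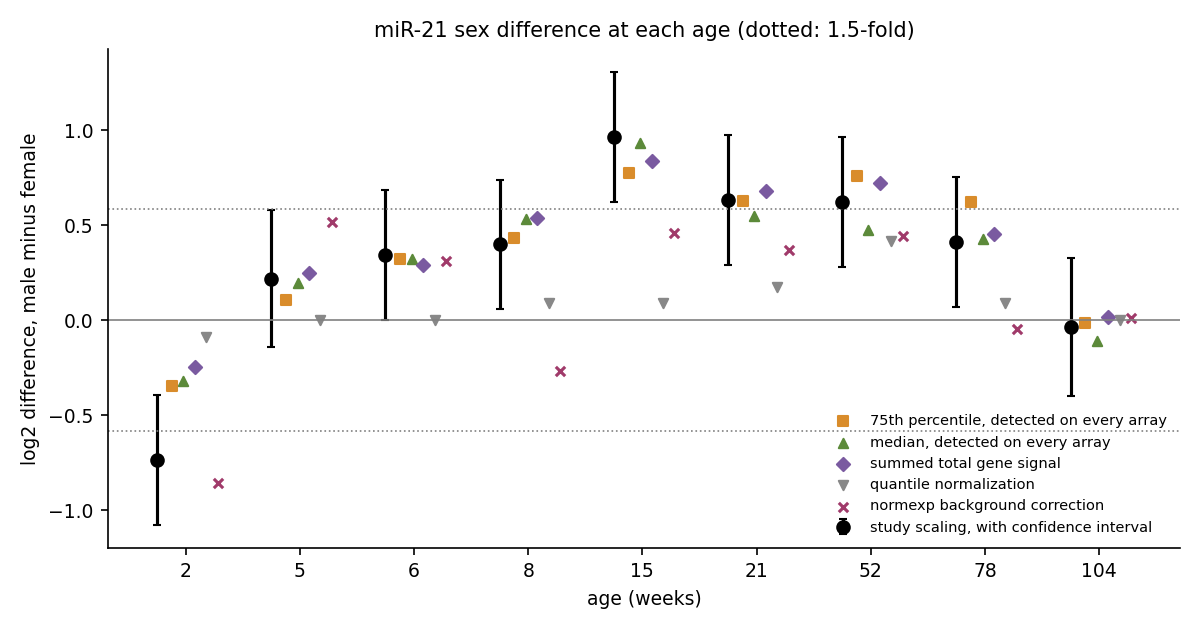
Log2 difference of miR-21, male minus female, at each age in weeks under the study's scaling (black, with its 95% confidence interval) and under 5 other settings (coloured markers); dotted lines mark 1.5-fold. The difference runs from -0.74 at 2 weeks to 0.97 at 15 weeks and -0.03 at 104 weeks under the study's scaling, and quantile normalization gives 0.088 at 15 weeks and 0.42 at 52 weeks.

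A pair of contrasts of the same fit were added after the values were seen. The sex difference at 15 weeks exceeded that at 5 weeks by 0.75 on the log2 scale (SE 0.25, adjusted p = 0.0995 from limma, 2.23% called), which did not pass the threshold. With the common-set scaling the value was 0.67 (adjusted p = 0.183 from limma). The array of 104-week female 8 belongs to neither age. Without it the value stayed at 0.75, the SE was 0.20 and the adjusted p from limma was 0.027. The sex difference at 104 weeks lay below that at 15 weeks (difference of the log2 differences -1.001, SE 0.25, adjusted p = 0.00665 from limma, 6.69% called). Without female 8 the value was -0.70 (adjusted p = 0.0299 from limma), and with the common-set scaling -0.79 (adjusted p = 0.0402 from limma).

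Within the scans, the males of 15 to 52 weeks lay above the females of these ages each time. The geometric means were 182 in 4 males and 104.7 in 6 females of scan 3, 176 in 3 males and 97.6 in 5 females of scan 4, and 187 in 3 males and 99.3 in 3 females of scan 5. In scan 2 the 5 males had 150.3 and the single female 119.8. Scan 1 held 1 array.

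From adult to old age, no change of miR-21 passed the thresholds. The rats of 52 to 104 weeks differed from the adults by 0.12 on the log2 scale in females (95% confidence interval -0.09 to 0.33, adjusted p = 0.568 from limma, 4.46% of miRNAs called). In males the difference was -0.07 (-0.26 to 0.13, adjusted p = 0.869 from limma, 5.1% called), and the interaction with sex was -0.18 (adjusted p = 0.901 from limma, 3.18% called). Against the adult females, the log2 differences were -0.00012 at 52 weeks (2.23% called), -0.05 at 78 weeks (3.82% called) and 0.42 at 104 weeks (adjusted p = 0.104 from limma, 3.18% called). Without female 8 the last of these was 0.11 (adjusted p = 0.956 from limma). Against the adult males they were 0.10 at 52 weeks (2.55% called), -0.17 at 78 weeks (3.5% called) and -0.15 at 104 weeks (7.32% called).

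The array of 104-week female 8 stood apart in miR-21. Of the 103 miRNAs detected on every array, miR-21 had the largest upward difference, while miR-378 (log2 difference -1.66) and miR-652* (-1.59) lay further away on the lower side. Its miR-21 lay 1.52 above the mean of the other 4 females of that age on the log2 scale, whereas the median difference over the 103 miRNAs was -0.19. Both probes showed it. Here each probe's mean spot signal was divided by the array's 75th percentile of such means, a scale other than that of the total gene signal. The values were 469 against 153 to 186 for the brighter and 171 against 52.0 to 70.1 for the dimmer. The array's total gene signal for miR-21 was 30026, against 5176 to 8585 on the other 4 arrays, while its 75th percentile was 93.8 against 49.8 to 77.6. The summed leukocyte markers were 31.3 on this array and 10.5 to 22.1 on the others, with miR-142-3p at 22.2 against 6.49 to 13.9 and miR-223, a myeloid miRNA, at 3.99 against 1.66 to 2.48. Summed biliary markers were 2.52 against 0.414 to 1.85 and summed erythroid markers 6.72 against 11.1 to 16.1. The summed markers of hepatocytes (732 against 704 to 1263), of stellate, smooth muscle and endothelial cells (40.5 against 29.3 to 44.3) and of skeletal muscle (0.0601 against 0.0601 to 0.180) lay within or at the edge of the range of the others. The part of these markers in the value of miR-21 was not tested. Over all 18 groups, the pooled SD of miR-21 within groups was 0.27 on the log2 scale, rank 65 from the smallest of 103 miRNAs, and without this array it was 0.22, rank 43.

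The deviations of miR-21 from its group means were compared with 2 measures of array quality, by permutation within groups (100000 permutations, two-sided). Over the 88 arrays, Pearson's r was -0.093 with the log2 75th percentile (p = 0.423, adjusted p = 0.531, permutation test) and Spearman's rho -0.099 (p = 0.398, adjusted p = 0.585, permutation test). With the number of detected miRNAs, r was -0.080 (p and adjusted p = 0.531, permutation test) and rho -0.063 (p and adjusted p = 0.585, permutation test). Without the 2 arrays farthest from the median, r was -0.00047 with the percentile and 0.076 with the number detected.

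The miRNAs whose group means ran most like those of miR-21 were miR-27a, miR-22, miR-23a, let-7b and miR-30d, by Pearson's r over the 18 groups among the miRNAs detected on every array. The correlations were 0.94, 0.92, 0.92, 0.92 and 0.89 in that order, as a description of groups that share arrays and scaling. miR-27a and miR-23a come from 1 primary transcript, and let-7b belongs to the let-7 family, which is known for its increase during development. The mature sequences of these miRNAs other than miR-30d, from RefSeq (GRCr8), are shown with the seed in capitals to set them beside miR-21. None of those shown shares its seed.
miR-27a: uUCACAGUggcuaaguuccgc
miR-22: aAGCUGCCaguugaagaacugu
miR-23a: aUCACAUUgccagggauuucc
let-7b: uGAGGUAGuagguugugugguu
miR-27a lies at chr19:40859614-40859634 and miR-23a at chr19:40859778-40859798, both on the minus strand, miR-22 at chr10:60805387-60805408 and let-7b at chr7:118684044-118684065, both on the plus strand.

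Like miR-21, miR-22 fell short of its adult level at 2 weeks, by a log2 difference of -1.38 in females and -2.15 in males, and was higher in females at this age (log2 difference, male minus female, -0.62). For let-7b the 2-week difference was -0.68 in females and -1.61 in males, for miR-23a -0.91 and -1.25, and for miR-27a -0.73 and -0.99, all past the thresholds. For miR-30d it was -0.48 in females, which was not called, and -1.07 in males, which was. Between the sexes at 2 weeks, let-7b was also called (log2 difference, male minus female, -0.78), and miR-27a, miR-23a and miR-30d were not. None of the 5 passed the thresholds for the sex difference at 15, 21 or 52 weeks, at which miR-21 did, although the differences between miRNAs were not tested. With the common-set scaling, r fell to 0.21 for miR-27a and 0.10 for miR-30d and was 0.79 for miR-22, 0.67 for miR-23a and 0.74 for let-7b. At the other end, miR-335, miR-17-5p and miR-322 had the lowest r, of -0.88, -0.61 and -0.56. On the common-set scaling the lowest were miR-352 (-0.87), miR-152 (-0.80) and miR-23b (-0.78), and the 3 named first had -0.71, -0.61 and -0.52.

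**Figure D4:**
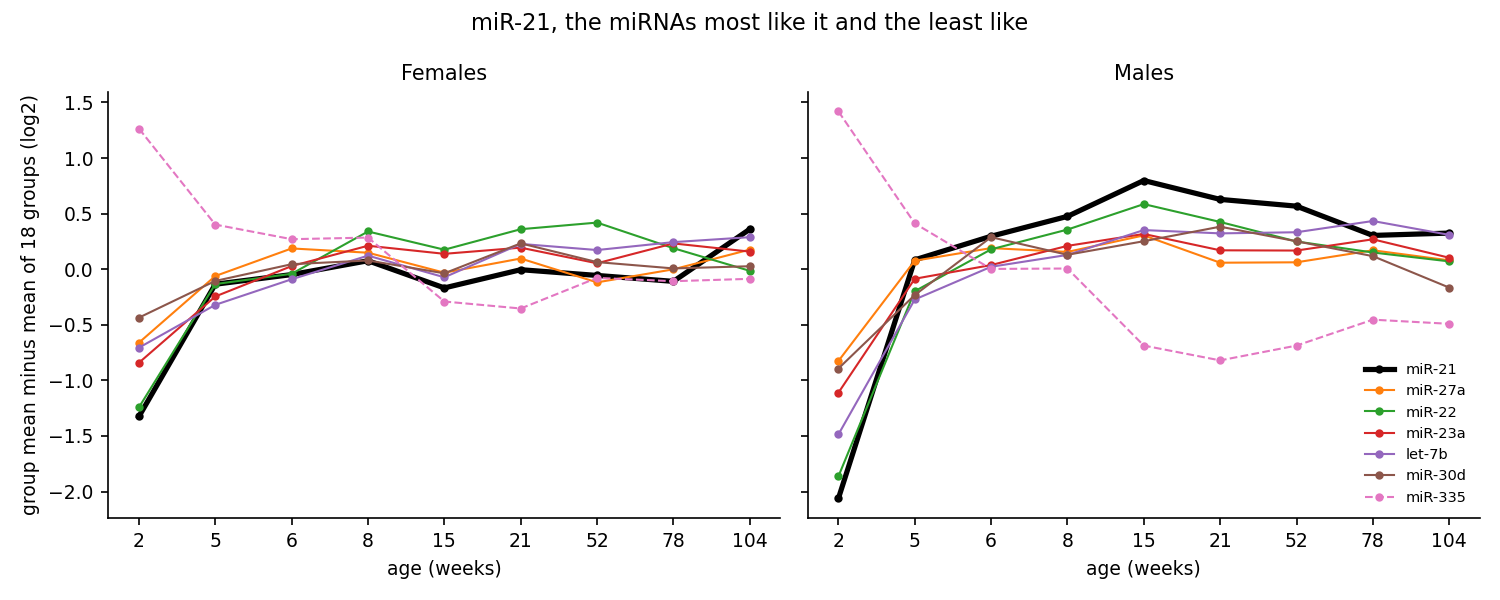
Group mean log2 intensity, less each miRNA's mean over the 18 groups, by age in weeks in females (left) and males (right) for miR-21 (thick black), the 5 miRNAs most like it and miR-335 (dashed), the least like. In males miR-21 runs from -2.06 at 2 weeks to 0.80 at 15 weeks, above the others there, while miR-335 runs from 1.42 to -0.69.

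Without the 2-week groups, over the 16 groups of 5 to 104 weeks, the most similar miRNAs were miR-125b-5p (r = 0.69), miR-99a (0.65), let-7c (0.63), miR-30a* (0.62) and let-7b (0.61). Without 104-week female 8, miR-100 (0.70) and miR-31* (0.63) entered the first 5 in place of let-7c (0.60) and let-7b (0.53), and with the common-set scaling miR-451 came first (0.60) and r was 0.55 for miR-125b-5p. Of these, miR-125b-5p and miR-99a were also higher in males at 15, 21 and 52 weeks. Their log2 differences, male minus female, were 0.68, 0.79 and 1.15 for miR-125b-5p and 0.66, 0.68 and 1.04 for miR-99a, beside 0.97, 0.63 and 0.62 for miR-21, and with the common-set scaling miR-125b-5p was called at 21 and 52 weeks but not at 15. let-7b is shown above, and the sequences of miR-125b-5p, let-7c and miR-30a* are printed for the same reason, with the seed in capitals.
miR-125b-5p: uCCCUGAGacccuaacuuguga
let-7c: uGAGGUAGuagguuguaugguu
miR-30a*: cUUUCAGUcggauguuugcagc
let-7c has the same seed as let-7b, GAGGUAG, and none of these has that of miR-21.

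Other miRNAs linked with growth, inflammation or fibrosis were read from 3 lists. The list of growth and regeneration had 12 of 13 members expressed, with miR-222 detected on no array. At 2 weeks 1 member was higher and 1 lower than in adults in females, and none was higher and 4 lower in males. The median log2 differences were -0.00089 and -0.41, beside -0.13 and -0.13 for all 314 miRNAs, of which 53 were higher and 72 lower in females and 62 higher and 94 lower in males. In old rats 1 member was higher and 1 lower in each sex, beside 5 higher and 9 lower of all miRNAs in females and 12 higher and 4 lower in males. miR-34a, which p53 induces and which restrains the cell cycle, was lower at 2 weeks by a log2 difference of -1.58 in females and -1.90 in males, and higher in old rats by 0.94 and 1.64. Of the 6 listed members of the miR-17-92 cluster, which promotes proliferation, miR-18a in females alone was called under the study's scaling. Among them miR-17-5p, miR-18a, miR-19b, miR-20a and miR-92a were all higher at 2 weeks in both sexes with the common-set scaling, where the list held 5 higher and 1 lower in females and 7 higher and 2 lower in males. All 314 miRNAs held 81 higher and 25 lower in females and 105 and 23 in males on that scaling.

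The list of inflammation and immune signalling had 8 of 10 members expressed, as miR-132 was detected on no array and miR-155 was not on it. In 2-week females none was higher and 2 lower, and in males none was higher and 3 lower. miR-212 was lower by log2 differences of -1.74 in females and -2.16 in males. miR-146a, which dampens Toll-like receptor signalling, was lower by log2 differences of -0.83 and -1.05. With the common-set scaling, miR-146a differed by -0.18 in females and 0.07 in males and was no longer called, and 4 members were called higher in each sex and 1, miR-212, lower in females. The median differences were 0.14 and 0.17 under the study's scaling. In old age none was called in females, and miR-146b and miR-125b-5p were higher in males, by log2 differences of 2.40 and 0.81. Over all 314 miRNAs, 5 were higher and 9 lower in old females, and 12 higher and 4 lower in old males.

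All 10 members of the fibrosis list were expressed. At 2 weeks 2 were higher and 4 lower in females, and none was higher and 5 lower in males, with medians of -0.09 and -0.53. All 314 miRNAs held 53 higher and 72 lower in females, and 62 higher and 94 lower in males. miR-29a and miR-29b, which repress collagens, were lower at 2 weeks by log2 differences of -2.34 and -2.59 in females and -3.15 and -2.67 in males, and remained past the thresholds with the common-set scaling. With that scaling 5 members were higher and 3 lower in each sex, beside 81 higher and 25 lower of all miRNAs in females and 105 and 23 in males. The lower members were miR-29a, miR-29b and miR-29c. In old rats the same 3 members were higher than in adults in both sexes under the study's scaling, by 0.72 to 1.47 in females and 0.71 to 1.38 in males, in which miR-200b was lower (log2 difference -0.79). Of all 314 miRNAs, 5 were higher and 9 lower in old females, and 12 and 4 in old males. With the common-set scaling miR-29c was no longer called in old females.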

How the data were processed

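RNA from each liver was hybridized to a 1-colour Agilent rat miRNA array. The deposited scanner files hold intensities from Feature Extraction, background subtracted and not normalized between arrays. The deposited series table holds ratios that the authors made by dividing each total gene signal by the array's 75th percentile, with undetected signals set to the raw minimum. The same steps were rerun here on the scanner files, and of 15763 detected values 1 differed by over 0.01% from the deposited ratio, and none for miR-21. Undetected values were then set to the lowest normalized value, 0.0120, and log2 taken.

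Sexes at each age, ages within each sex and age classes (2, 5 to 21 and 52 to 104 weeks) were compared with limma 3.58.1 in R 4.3.3 over the 314 expressed miRNAs, with Benjamini-Hochberg adjustment, an adjusted p of 0.05 and a 1.5-fold difference. Interactions and F tests carried no fold threshold. p-values measure the spread between arrays.

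No target spot was saturated. Named besides miR-21 were the 5 miRNAs most like it over all groups and over the later ones, the 3 least like it, and in each list the 2 members with the largest difference at 2 weeks past the thresholds in both sexes; members named beyond these were chosen after their values were seen. miR-21 and the lists were chosen with earlier results of these data known. Alternatives were other scalings, background correction with normexp (offset 50, on the median signal of each spot) and the mean processed signal over the spots. Further ones were 1 probe alone, blocks for scan, slide and replicate number, and each array left out. Scripts were tested on simulated data.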

Additional observations from a re-analysis of the deposited data

Results flagged for a closer look

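At 104 weeks, the array of female 8 had a normalized miR-21 intensity of 320.0, apart from the other 4 females of that age. The gap to the next array was 0.879 of the group's range on the log2 scale, above Dixon's critical value of 0.71 for 5 arrays. At 21 weeks, female 6 had the lowest value, 84.5, with a gap of 0.747 of the range. These were 2 of the 18 groups, and chance alone would flag about 1 in 20.

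The sex difference of miR-21 at 2 weeks lay below that in the adults by a log2 difference of -1.25 (adjusted p = 7.55e-08 from limma, interaction term).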

How the results depend on the processing

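The scaling moved the sex calls of miR-21, and the 2-week minus adult difference in males passed the thresholds under all 19 alternatives other than leaving out single arrays. With the common-set scaling the male minus female log2 difference was -0.34 at 2 weeks and 0.62 at 78 weeks, females were higher at 0 ages, and 5 pairs of ages differed in females. With the percentile over all array miRNAs, it was -0.70 at 2 weeks, 1.79 at 8 weeks (now called) and 0.97 at 21 weeks (no longer called), and females were higher at 0 ages. This divisor follows the number of detected miRNAs, as stated above. With the median of the miRNAs detected on every array, the values were -0.32 at 2 weeks, 0.55 at 21 weeks and 0.48 at 52 weeks, males being higher at 1 age and females at 0. With the summed total gene signal it was -0.25 at 2 weeks, females were higher at 0 ages and 4 pairs of ages differed in females. Quantile normalization gives a rank the same value on every array. It gave -0.088 at 2 weeks, 0.088 at 15, 0.18 at 21 and 0.42 at 52 weeks. The interaction was -0.16 and the 2-week minus adult difference -0.54 in females, with 0 ages called for either sex and 3 pairs of ages in females. All male ages after 2 weeks had equal means under it, so it cannot decide the size of these differences. Normexp gave -0.86 at 2 weeks, 0.46 at 15, 0.37 at 21 and 0.44 at 52 weeks, none called, so 0 ages for either sex. It called few miRNAs of any kind. At 2 weeks 5 were higher and 8 lower in males, against 35 and 24 under the study's scaling. At 15 weeks the numbers were 0 and 4 against 10 and 19. They were 0 and 2 against 8 and 11 at 21 weeks, and 3 and 3 against 8 and 13 at 52 weeks. The brighter probe alone gave 0.55 at 21 weeks. Without the arrays of the later design file, or without the scan with the highest percentile, the values were 0.55 at 21 weeks and 0.56 at 52 weeks, and males were higher at 1 age. The causes were not tested.

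With 1 array left out, the differences were 0.55 to 0.70 at 21 weeks and 0.54 to 0.67 at 52 weeks. The pairs of ages that passed then numbered 8 to 10 in females and 9 to 10 in males. The 2-week minus adult difference of miR-146a in males turned to 0.066 with the common-set scaling and 0.082 with the summed signal. With the replicate block, the difference at 15 weeks was 0.95 and no call changed. Of the 33 pairs of rats of 1 age, male with female, sharing a number, 17 correlated above 0.1 (r from -0.69 to 0.74). Rats not sharing a number were not compared, so this cannot decide whether the numbers mark pairs. No difference between adult and old rats passed the thresholds under any alternative run. Signal did not limit miR-21, whose spots were above background on every array.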

Other observations

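Within groups, the array-to-array deviations of miR-21 had the highest r over the 88 arrays with those of miR-27a (0.78), miR-511* (0.74), miR-322 (0.70) and miR-140 (0.68). Without the array of 104-week female 8 the order changed, to 0.83 for miR-140, 0.73 for miR-27a, 0.71 for miR-28 and 0.69 for miR-511*, and r was 0.58 for miR-322. These are descriptions over arrays that share 1 divisor, chosen after the values were seen. miR-322 was among the least like miR-21 in group means and among the more similar in these deviations over all arrays.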
